A study of Mus musculus with 2 samples.

Results

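The genes of oxidative phosphorylation were compared between 2 RNA-sequencing libraries of mouse tongue. They were found by symbol in a table of 18498 rows, as rows whose name begins with Nduf and a subunit letter, with Sdha to Sdhd, with Uqcr, with Cox4 to Cox8 or with Atp5, and the assembly factors named Ndufaf were left out. This gave 85 rows. Of these, 38 code for subunits of complex I, 4 for complex II, 8 for complex III, 17 for complex IV and 15 for complex V, and 3 match the rule by name without being subunits (*Cox4nb*, *Atp5s* and *Atp5sl*). The circumvallate papillae (CvP), the large taste papillae at the back of the tongue, gave 1 library and tongue epithelium free of papillae (Epi) gave the other. Both came from male C57BL/6J mice aged 12 to 30 weeks on normal chow, with no treatment or altered gene in either group, and RNA of at least 20 mice was pooled for each. A tissue thus had 1 library and no replicate, no p-value could be given, and every value describes these 2 libraries. The unit is RPKM, reads per kilobase of exon model scaled to the mapped reads of the library, and a CvP/Epi ratio above 1 means a higher RPKM in the CvP.

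Oxidative phosphorylation makes ATP in the inner membrane of mitochondria. Complex I takes electrons from NADH and complex II, succinate dehydrogenase, takes them from succinate, and both pass them through ubiquinone to complex III, cytochrome c and complex IV, where oxygen is reduced. Complexes I, III and IV pump protons as electrons pass, and complex V, the ATP synthase, lets the protons flow back and forms ATP. Complex II pumps no protons and is also an enzyme of the tricarboxylic acid (TCA) cycle. Most subunits are coded in the nucleus, but every complex other than II also holds subunits coded by mitochondrial DNA. None of the 13 genes for those had a row in the table, so only the nuclear part is described.

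Most subunit genes had nearly the same RPKM in both tissues. Over the 82 of 85 rows with a mean RPKM of at least 1, the median level was 48.0 RPKM in the CvP against 47.6 RPKM in the Epi, and the median ratio was 1.02. The summed level of all 85 rows was 5664 RPKM in the CvP against 5632 RPKM in the Epi. In 59 of the 82 rows (72.0%) the higher value exceeded the lower by at most 25%, which is called within 25% from here on, against 29.0% of the 11620 rows with a gene symbol that passed the same filter. Higher values in the CvP (44 rows) were about as frequent as higher values in the Epi (38 rows). No row met the criteria the study used for genes of the CvP, a CvP RPKM over 10 with a ratio over 3, which 2.35% of all rows met, and none met the same criteria turned towards the Epi, which 0.600% of all rows met. The ratios of these genes were also narrowly spread, with an interquartile range of 0.37 on the log2 scale, against 0.93 for all genes.

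**Figure D1:**
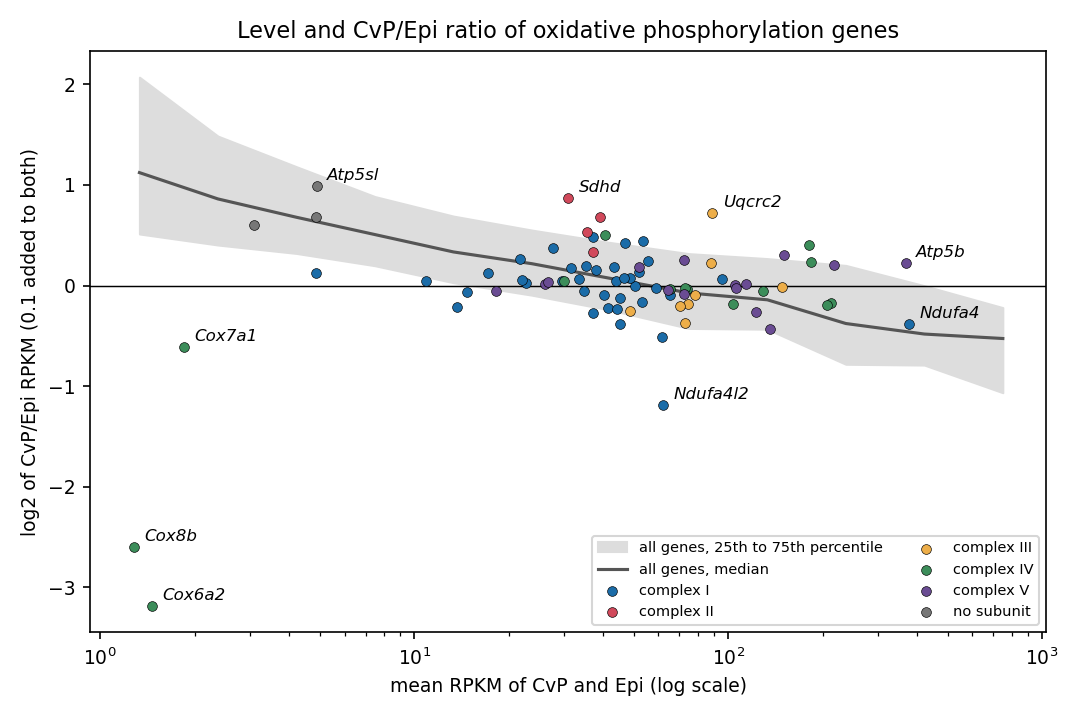
Each point is 1 gene of oxidative phosphorylation with a mean RPKM of at least 1, coloured by complex, with the mean RPKM of both libraries on a log x axis and log2 of the CvP/Epi RPKM (0.1 added to both values) on the y axis. The grey line and band give the median and the 25th to 75th percentile of all genes at each level, and most points lie near 0, while *Cox6a2*, *Cox8b* and *Ndufa4l2* lie far below and the 4 genes of complex II lie above.

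These were abundant transcripts in both tissues. By mean RPKM, 64 of the 85 rows stood in the top 10% of the table (28.98 RPKM or more). The ratio of other genes depended on level, so the level matters to the comparison. All genes past the filter had a median log2 ratio of 0.47, and 77.8% of them had the higher value in the CvP, but this shift lay among weakly expressed genes. It was 0.70 for genes of 1 to 10 RPKM, 0.29 for 10 to 30, 0.02 for 30 to 100 and -0.36 for genes of at least 100 RPKM. The median of the oxidative phosphorylation genes moved less over the same steps, being 0.13 in 7 genes, 0.04 in 12, 0.05 in 47 and -0.02 in 16. With 30 to 100 RPKM, where most of them stood, 34 of 47 were within 25%, against 45.9% of all genes at that level.

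The direction of a difference this small rests on how the libraries are scaled. Genes with at least 1 RPKM in both libraries had a median ratio of 1.32, a shift of 0.40 on the log2 scale, and dividing by it put the median of the 82 rows at -0.37, with 12 of them higher in the CvP. Scaling both libraries to the same summed RPKM instead put the median at 0.30, with 72 higher in the CvP. Ratios below are of the deposited RPKM unless stated. A comparison of complexes within the same pair of libraries does not move with the scaling.

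Complex II stood apart from the others. All 4 of its genes had a higher RPKM in the CvP, with a median ratio of 1.52, against 1.00 for the 75 genes of the other 4 complexes past the filter. The catalytic part of the enzyme is made of *Sdha*, the flavoprotein that oxidizes succinate, and *Sdhb*, the iron-sulphur protein, and *Sdhc* and *Sdhd* anchor it in the membrane and bind ubiquinone. *Sdha* had 48.27 RPKM in the CvP against 30.07 in the Epi, which is a CvP/Epi ratio of 1.61 (95% limits 1.53 and 1.69). *Sdhd* had 39.99 and 21.90 RPKM, a ratio of 1.83 (1.67 to 1.99), the highest of any subunit past the filter. *Sdhb* had 42.14 and 29.03 RPKM, a ratio of 1.45 (1.34 to 1.58). *Sdhc* had 41.50 and 32.83 RPKM and the lowest ratio of the complex, 1.26 (1.20 to 1.33). These intervals are exact binomial limits from the estimated reads and cover counting error only, not the variation between mice or dissections. No interval reached 1, but divided by the median ratio of all genes *Sdhc* came to 0.960, on the Epi side, while *Sdha*, *Sdhb* and *Sdhd* stayed on the CvP side at 1.22, 1.10 and 1.39. In the CvP the 4 genes lay between 39.99 and 48.27 RPKM, close to the median of complex I (39.7 RPKM), and in the Epi between 21.90 and 32.83 RPKM, below that of complex I (41.2 RPKM). None of the 4 transcripts shared an exact run of 75 bases, the length of a read, with another place in the genome.

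The promoters of the complex II genes with an entry are shown because these genes differed together, and those of 3 complex IV genes because their isoforms differ between the tissues. Each line gives the 250 bases before the annotated start of transcription, 5′ to 3′, from RefSeq, and *Sdhc* had no entry. Capitals mark matches, on either strand, to GCGCANGCG, the core of the site of the transcription factor NRF1 with any base in the sixth place, and to the GC box GGGCGG.
*Sdha* (GRCm38.p6, chr13:74350241-74350490, minus strand): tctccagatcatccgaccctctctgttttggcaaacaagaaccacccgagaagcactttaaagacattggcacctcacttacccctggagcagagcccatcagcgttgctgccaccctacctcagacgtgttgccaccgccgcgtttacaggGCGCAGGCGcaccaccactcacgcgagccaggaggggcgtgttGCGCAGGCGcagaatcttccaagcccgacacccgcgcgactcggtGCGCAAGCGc
*Sdhb* (GRCm38.p6, chr4:140961021-140961270, plus strand): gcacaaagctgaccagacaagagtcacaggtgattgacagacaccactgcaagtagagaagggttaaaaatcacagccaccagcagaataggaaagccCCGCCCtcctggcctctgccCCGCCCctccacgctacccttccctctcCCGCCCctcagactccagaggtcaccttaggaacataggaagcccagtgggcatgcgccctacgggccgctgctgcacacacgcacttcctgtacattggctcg
*Sdhd* (GRCm38.p6, chr9:50603850-50604099, minus strand): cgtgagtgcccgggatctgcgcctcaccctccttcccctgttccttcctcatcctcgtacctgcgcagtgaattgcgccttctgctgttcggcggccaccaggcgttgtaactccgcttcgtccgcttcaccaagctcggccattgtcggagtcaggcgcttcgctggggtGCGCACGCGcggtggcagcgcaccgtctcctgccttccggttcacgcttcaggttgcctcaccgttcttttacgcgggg
*Cox6a1* (GRCm38.p6, chr5:115348959-115349208, minus strand): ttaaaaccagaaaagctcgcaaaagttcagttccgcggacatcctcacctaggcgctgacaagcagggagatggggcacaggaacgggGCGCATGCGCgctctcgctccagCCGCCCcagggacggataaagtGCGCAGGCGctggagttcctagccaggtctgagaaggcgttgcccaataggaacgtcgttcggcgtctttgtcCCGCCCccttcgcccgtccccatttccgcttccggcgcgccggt
*Cox8a* (GRCm38.p6, chr19:7217617-7217866, minus strand): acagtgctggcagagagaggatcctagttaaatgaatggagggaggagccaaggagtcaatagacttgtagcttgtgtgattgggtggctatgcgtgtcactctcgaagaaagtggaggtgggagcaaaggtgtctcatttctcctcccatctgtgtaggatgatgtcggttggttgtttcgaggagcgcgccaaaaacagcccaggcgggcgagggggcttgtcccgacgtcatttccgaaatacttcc
*Cox8b* (GRCm38.p6, chr7:140900447-140900696, minus strand): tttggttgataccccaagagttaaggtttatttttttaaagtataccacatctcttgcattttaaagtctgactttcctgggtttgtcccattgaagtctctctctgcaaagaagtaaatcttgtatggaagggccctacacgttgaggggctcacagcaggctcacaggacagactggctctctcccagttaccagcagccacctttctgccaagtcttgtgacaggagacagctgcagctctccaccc
The genes themselves lie, in the NCBI37/mm9 coordinates of the deposited table, on chromosome 13 from 74459703 to 74487688 (*Sdha*), chromosome 4 from 140517186 to 140535107 (*Sdhb*), chromosome 1 from 173059288 to 173080734 (*Sdhc*) and chromosome 9 from 50404445 to 50411954 (*Sdhd*).

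The *Sdha* promoter held the NRF1-type letters 3 times, starting 98, 55 and 10 bases before the start, and that of *Sdhd* held them once, at 79 bases. The *Sdhb* promoter had no such match in this window but held 3 GC boxes, at 152, 132 and 104 bases. In that of *Cox6a1* the longer capitals at 162 bases are GCGCATGCG overlapped by its reverse complement, followed by a GC box at 139, GCGCAGGCG at 117 and a GC box at 44. The windows of *Cox8a* and *Cox8b* held none of these letters. Of the oxidative phosphorylation genes, 70 had at least 1 promoter entry, here taken as 250 bases before to 50 bases after the start. GCGCANGCG was found in 28.6% of these, in 15.7% of the 9172 genes past the filter that have an entry, and in 7.03% of all 27025 genes of the reference. The stricter NRF1 letters GCGCATGCG, which are a subset of the former, were found in 11.4%, 4.14% and 1.95%. AAGATGGCG, the YY1 motif, was found in 11.4%, 3.77% and 1.64%, and TCAAGGTCA, a site of the oestrogen-related receptors, in 2.86% (2 genes), 0.305% and 0.466%. CCGGAAGT, read by the ETS factor GABP, was found in 7.14%, 9.38% and 4.31%. The GC box was found in 41.4%, 69.8% and 38.2%. The ETS motif and the GC box thus had a smaller share of these promoters than of the genes past the filter, and the other motifs had a larger one. A gene counted if any of its promoters held the motif, and the 70 genes had 76 promoters against 11663 for the 9172. Median GC was 57.5% against 60.7%, and the median number of CpG dinucleotides was 19 against 21. The part of these differences in the shares was not tested. Both strands were searched throughout, and a match is a run of letters, not a measured binding site.

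Complex I, the largest of the complexes, was nearly level between the tissues. Its 38 genes had a median ratio of 1.03, 22 were higher in the CvP, and 30 were within 25%. Of the 7 nuclear genes of the catalytic core, which carry the flavin and the iron-sulphur clusters, 5 were higher in the CvP. *Ndufs1* had 31.30 RPKM in the CvP against 24.20 in the Epi, a ratio of 1.29 (1.22 to 1.37). *Ndufv1*, which binds NADH, had 46.08 and 40.47 RPKM (1.14, 1.07 to 1.21). *Ndufs8* had 33.49 and 29.70 RPKM and *Ndufs7* had 34.23 and 32.67. Higher in the Epi were *Ndufs3* with 43.21 RPKM in the CvP against 47.26 in the Epi and *Ndufv2* with 33.72 and 40.71. All 7 were on the Epi side once divided by the median ratio of all genes, and scaled to the same summed RPKM *Ndufs3* turned to the CvP side at 1.10 and *Ndufv2* was at 0.999.

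The accessory genes of complex I, which surround and stabilize the core, ranged more widely. *Ndufc2* had the highest ratio of the complex, with 43.22 RPKM in the CvP against 30.84 in the Epi (1.401, 1.26 to 1.56). At the other end stood *Ndufa4l2*, with 37.82 RPKM in the CvP against 86.20 in the Epi. It was the only gene of the complex past 1.5-fold in either direction and was 2.28-fold higher in the Epi (2.12 to 2.46). The next accessory gene on that side was *Ndufc1*, with 50.74 and 72.27 RPKM (1.42-fold higher in the Epi, 1.28 to 1.59). *Ndufa4l2* is a relative of *Ndufa4* known as a gene induced by hypoxia. *Ndufa4* itself, which is named for complex I but has been found in complex IV, was much more abundant, with 326.81 RPKM in the CvP against 425.62 in the Epi, the highest Epi value of all 85 rows. *Ndufa4l2* made up 10.4% (9.75 to 11.02) of the summed RPKM of this pair in the CvP and 16.8% (16.2 to 17.5) in the Epi, so that the share moved together with the level. This share does not depend on the scaling of the libraries, but it depends on length. With reads taken from the listed length and divided by the bases of the longest coding transcript, it was 3.17% and 5.43%.

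**Figure D2:**
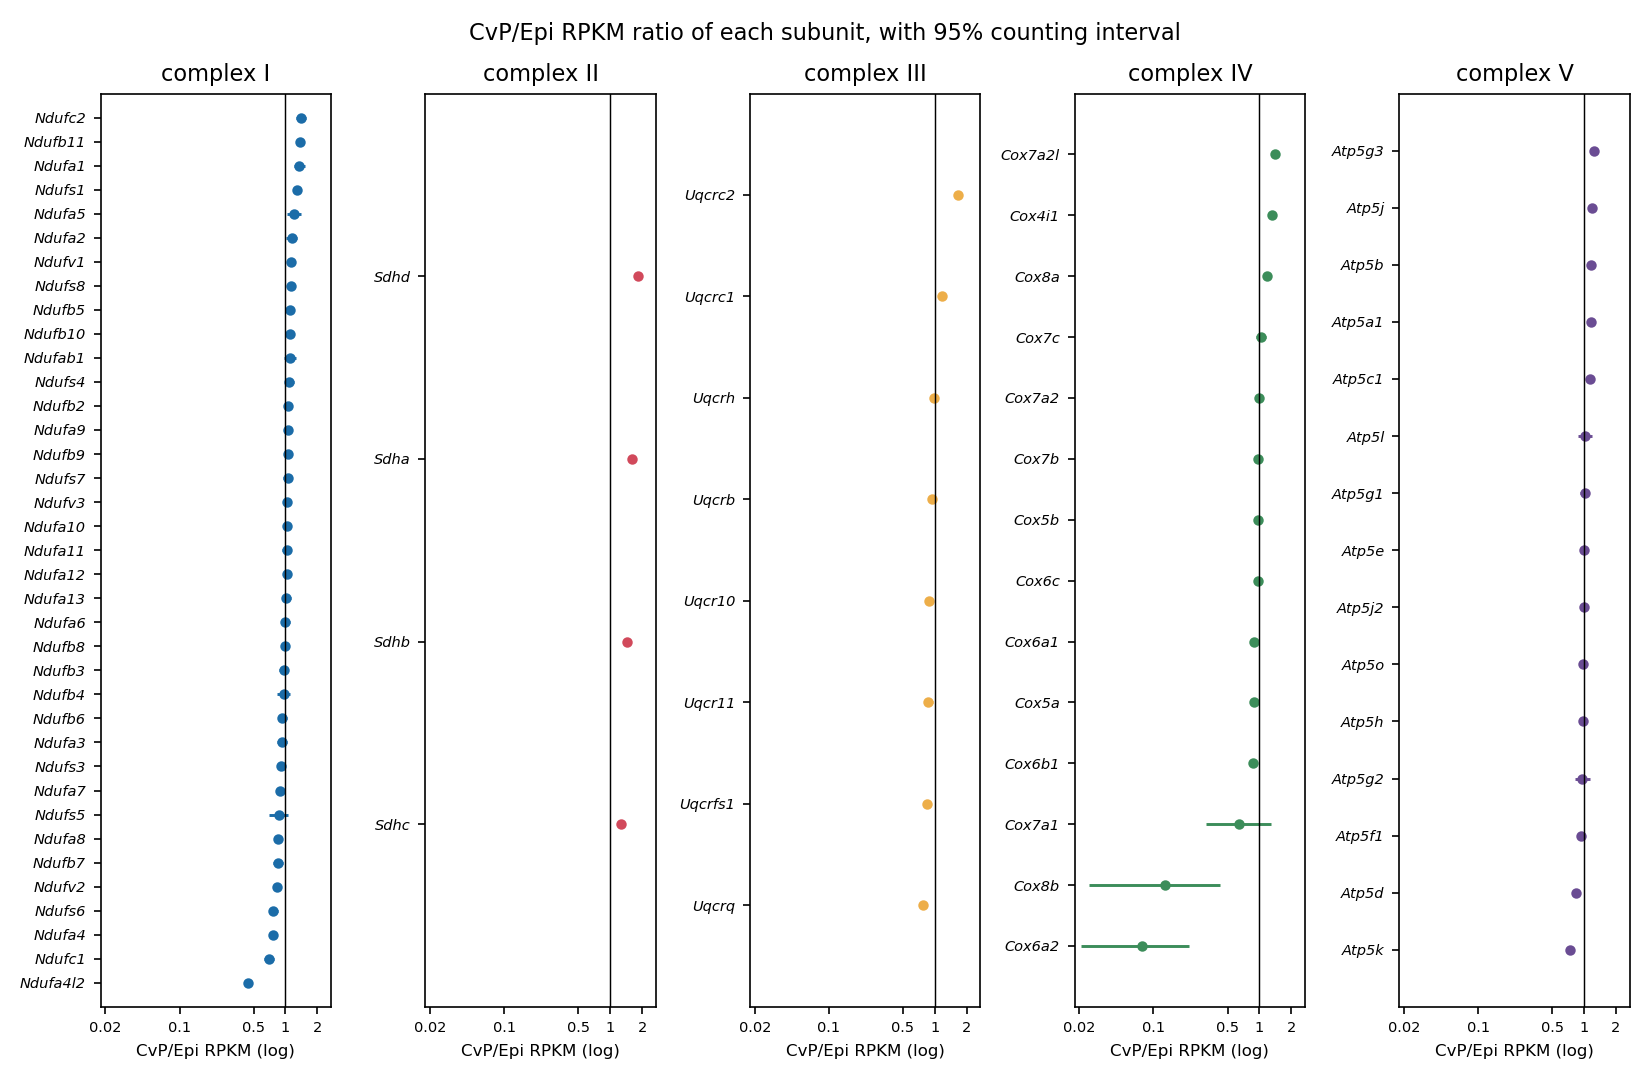
CvP/Epi RPKM ratio (log x axis) of the subunits with a mean RPKM of at least 1, apart from 1 gene of complex I that is not reported here, in 1 panel per complex and ordered by ratio, with a point for the ratio, a bar for its 95% counting interval and a vertical line at 1. All 4 points of complex II lie right of the line, those of complex V hold close to it, and *Cox6a2* and *Cox8b* lie far to the left with wide bars.

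Complex III was divided by the role of its subunits. *Uqcrc1* and *Uqcrc2*, the large core proteins on the matrix side, were higher in the CvP, and *Uqcrc2* was past 1.5-fold with 110.69 RPKM in the CvP against 67.26 in the Epi (1.65, 1.58 to 1.72). Divided by the median ratio of all genes it was still on the CvP side, with a log2 ratio of 0.32. *Uqcrc1* had 95.16 and 81.74 RPKM (1.16, 1.11 to 1.22), and the same division turned it to the Epi side at 0.884. The Rieske iron-sulphur protein *Uqcrfs1*, which passes electrons on towards cytochrome c, had 44.43 RPKM in the CvP against 53.14 in the Epi (0.836, 0.783 to 0.892). The 5 small subunits had ratios from 0.774 to 0.992, none of them above 1, the lowest being that of *Uqcrq* with 63.64 and 82.23 RPKM and the highest that of *Uqcrh* with 147.71 and 148.88. Scaled to the same summed RPKM, *Uqcrfs1* turned to the CvP side at 1.01, and of the small subunits only *Uqcrq* (0.934) stayed below 1. The order of the subunits does not move with the scaling, and the intervals of *Uqcrc2* and *Uqcrc1* did not overlap those of any of the other 6 genes.

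In complex IV, cytochrome c oxidase, the general isoforms were close to level, while the muscle isoforms *Cox6a2* and *Cox8b* were not. Of the 14 genes past the filter, 11 are general isoforms, and 9 of these were within 25%. The exceptions were *Cox7a2l*, a relative of *Cox7a2* that also takes part in joining complexes III and IV, with 47.44 RPKM in the CvP against 33.54 in the Epi (1.41, 1.31 to 1.53), and *Cox4i1*, the general form of the largest nuclear subunit, with 206.40 and 156.55 RPKM (1.32, 1.26 to 1.38), which lay at 1.00 once divided by the median ratio of all genes. *Cox5a* had 97.39 RPKM in the CvP against 110.41 in the Epi (0.882, 0.829 to 0.939). Other general isoforms were *Cox6a1* with 200.69 and 226.16 RPKM, *Cox6b1* with 193.41 and 221.06, *Cox7a2* with 72.15 and 73.34, *Cox7b* with 64.66 and 66.11, and *Cox8a* with 198.94 and 168.98. Among these 11 the ratio thus kept between 0.875 and 1.41, and *Cox7a2l* was the only one on the same side of 1 under all 3 other scalings.

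Heart and skeletal muscle use their own forms of 3 of the small subunits of complex IV, and these were low in both tissues and lowest in the CvP. *Cox6a2* had 0.21 RPKM in the CvP, about 4 reads, against 2.72 RPKM and about 50 reads in the Epi, and was 12.95-fold higher in the Epi (4.67 to 48.5). *Cox8b* had 0.29 and 2.27 RPKM, about 3 and 23 reads, a CvP/Epi ratio of 0.128 (0.0247 to 0.425) that rests on a CvP count at the floor of 3 reads. *Cox7a1* had 1.44 and 2.25 RPKM, about 15 and 23 reads, and the limits of its ratio of 0.640 (0.311 to 1.28) enclose 1, so a difference was not detectable at this depth. As a share of its pair, *Cox6a2* was 0.105% (0.0285 to 0.267) of *Cox6a1* and *Cox6a2* in the CvP and 1.19% (0.883 to 1.56) in the Epi. *Cox8b* was 0.146% (0.0300 to 0.425) of *Cox8a* and *Cox8b* in the CvP and 1.33% (0.843 to 1.98) in the Epi. *Cox7a1* was 1.96% (1.10 to 3.197) and 2.98% (1.90 to 4.42) of *Cox7a1* and *Cox7a2*, but 0.238% and 0.366% per base of the longest coding transcript, so its level beside *Cox7a2* is uncertain. The intervals of the first pair of shares, and those of the second, did not overlap between the tissues, and those of *Cox7a1* did. In the promoters shown, *Cox6a1* had 26 CpG dinucleotides in 250 bases, *Cox8a* had 11 and *Cox8b* had 1.

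Most markers of skeletal muscle differed in the same direction as these isoforms. Of 15 listed muscle genes, 12 were past the filter and all 12 were over 1.5-fold higher in the Epi, against 6.80% of all genes past the filter. Most of the 12 passed the filter only through their Epi value, so this count was largely set by the filter. Below the filter, *Actn3* had 0.01 RPKM in the CvP against 0.17 in the Epi, *Myh2* had 0.09 and 0.11, and *Myh7* had 0.07 and 0.01. The summed level of the 15 was 9.69 RPKM in the CvP against 92.0 RPKM in the Epi, and none was at 0 in either library. The skeletal actin *Acta1* had 0.86 RPKM in the CvP against 12.88 in the Epi, and the muscle creatine kinase *Ckm* had 0.67 and 10.56. The part of muscle RNA in the *Cox6a2* and *Cox8b* values was not tested. In libraries of whole tissue, fewer cells of a type cannot be told apart from less RNA per cell. Brown fat also uses *Cox7a1* and *Cox8b*, and its marker *Ucp1* had 0.08 RPKM in the CvP against 0.28 in the Epi. Another gene of that list, *Cidea*, had 6.93 and 19.06 RPKM.

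**Figure D3:**
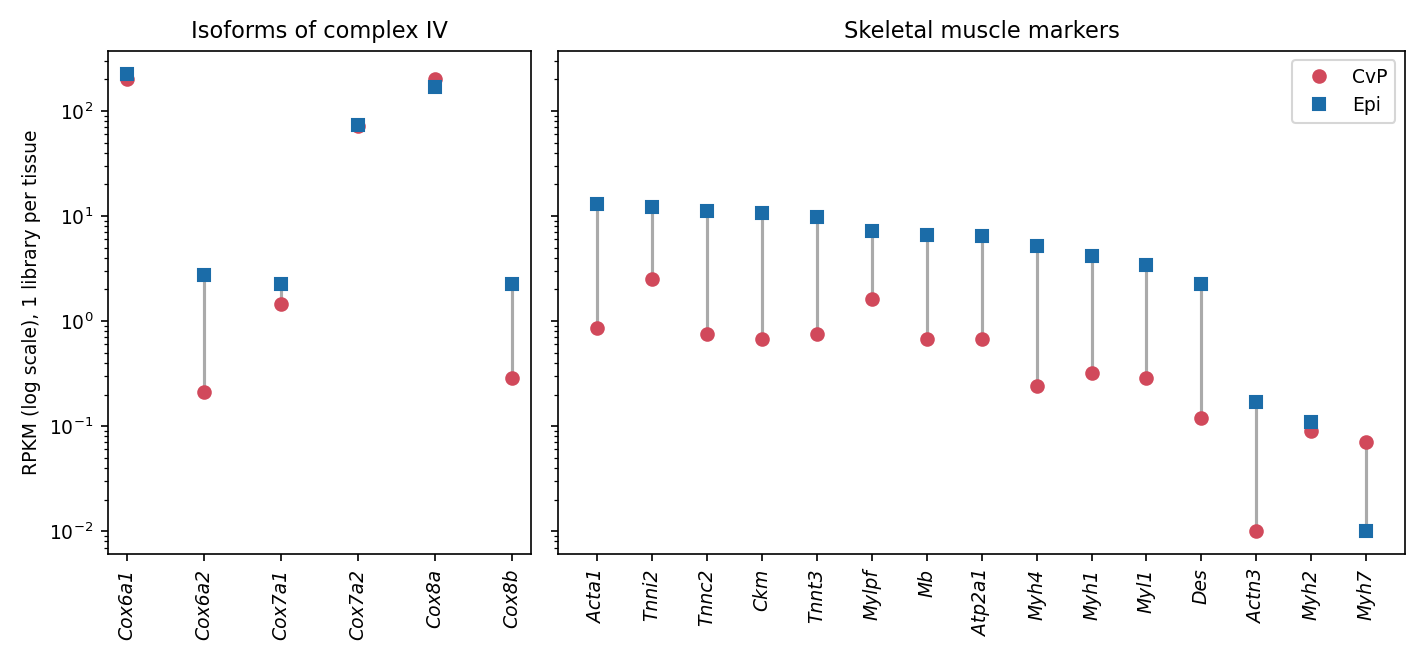
RPKM on a log y axis in the CvP (circles) and the Epi (squares), 1 library each, for the general and muscle isoforms of 3 subunits of complex IV (left) and for 15 skeletal muscle markers (right). The general isoforms overlap near 72 to 226 RPKM, while *Cox6a2*, *Cox8b* and most muscle markers have the square well above the circle.

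The remaining isoforms of complex IV were nearly absent. *Cox4i2*, a form of lung and hypoxic tissue, had 0.05 RPKM in both libraries, about 1 read each, and was 0.0242% and 0.0319% of *Cox4i1* and *Cox4i2*. *Cox6b2*, a form of testis, had 0.76 RPKM in the CvP against 0.29 in the Epi, about 12 and 4 reads, a ratio of 2.62 with an interval of 0.894 to 12.6 that includes 1. It was 0.391% and 0.131% of its pair with *Cox6b1*, or 0.726% and 0.243% per base of the longest coding transcript. *Cox7b2* had 0.13 RPKM in the CvP, about 2 reads, and 0 in the Epi. It was 0.201% (0.0243 to 0.722) of its pair with *Cox7b* in the CvP, which rests on a count below the floor of 3 reads. For the count of 0 in the Epi the exact upper limit was 0.1995%, as a share of reads and not of RPKM. The shares of the 2 tissues can therefore not be set against each other. *Cox4i2*, *Cox6b2* and *Cox7b2* were the only rows below a mean of 1 RPKM.

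Complex V had the largest share of genes within 25%. Of its 15 genes, 14 were within 25%, and the median ratio was 1.01. The F1 part, where ATP is formed, had the most abundant transcripts. *Atp5b*, the catalytic beta subunit, had 395.41 RPKM in the CvP against 339.67 in the Epi (1.16, 1.14 to 1.19), and its CvP value was the highest of all 85 rows. The alpha subunit *Atp5a1* had 233.75 and 202.38 RPKM with the same ratio (1.16, 1.13 to 1.18), and both came to the Epi side, at 0.884 and 0.877, when divided by the median ratio of all genes. The lowest ratio was that of *Atp5k*, a small subunit of the membrane part, with 115.92 RPKM in the CvP against 155.99 in the Epi (0.743, 0.689 to 0.801), and this was the only gene of the complex beyond 25%. The c subunit, which forms the turning ring, is coded by 3 genes for the same mature protein. *Atp5g3* had 165.86 and 134.48 RPKM, the highest ratio of the complex (1.23, 1.17 to 1.297), *Atp5g1* had 26.28 and 25.97, and *Atp5g2* had 17.87 and 18.51. Their shares of the summed RPKM were 79.0%, 12.5% and 8.51% in the CvP and 75.1%, 14.5% and 10.3% in the Epi, so *Atp5g3* led in both. Per base of the longest coding transcript, which for *Atp5g1* is far longer than the listed length, the share of *Atp5g1* was 0.893% and 1.05%, and *Atp5g3* still led. All 75-base windows of the *Atp5g2* transcript also occur elsewhere in the genome, so its share is uncertain.

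Counted over all complexes, 6 rows were over 1.5-fold higher in the CvP, where 43.1% of all genes past the filter were, and 4 were over 1.5-fold higher in the Epi, where 6.80% were. The 6 were *Sdha*, *Sdhd* and *Uqcrc2* and the 3 rows that are no subunits. *Atp5sl*, whose product is now known as a factor in complex I assembly, had 6.54 RPKM in the CvP against 3.25 in the Epi (2.01, 1.71 to 2.38). *Cox4nb*, a neighbour of *Cox4i1* whose product belongs to the membrane protein complex of the endoplasmic reticulum, had 6.04 and 3.73 RPKM (1.62, 1.45 to 1.81), and *Atp5s* had 3.73 and 2.43 RPKM (1.53, 1.18 to 1.98). All 3 were weakly expressed beside the subunits. The 4 on the Epi side were *Ndufa4l2*, *Cox6a2*, *Cox8b* and *Cox7a1*. *Cox6a2* and *Cox8b* passed the filter only through the Epi, and the limits of *Cox7a1* enclose a ratio of 1. With a mean RPKM of at least 10, 1 of the 4 remained. Divided by the median ratio of all genes, the counts became 1 and 17. The values nearest to the limit were *Sdhb* (1.45) just inside it and *Atp5s* (1.53) just beyond it on the CvP side, and *Ndufc1* (0.702) and *Cox7a1* (0.640) on the Epi side.

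Among the wider mitochondrial gene lists, the TCA cycle leaned to the CvP, as complex II and most of all genes did. All 17 genes of the TCA cycle and pyruvate dehydrogenase had the higher RPKM in the CvP, and their median log2 ratio was 0.43. Of all genes past the filter, 77.8% were higher in the CvP. Over 1.5-fold were 4 of the 17, against 43.1% of all genes past the filter, and none was over it in the Epi. Most of the 17 stood above 10 RPKM, where fewer of all genes were over 1.5-fold higher in the CvP. That share was 28.3% at 10 to 30 RPKM, 16.9% at 30 to 100 and 13.1% at 100 or more. The median log2 ratios of all genes at these levels were 0.29, 0.02 and -0.36. Divided by the median ratio of all genes their median came to 0.03, with 9 of 17 still higher in the CvP, and the same scaling left complex II at 0.21. *Mdh2*, the malate dehydrogenase, had 135.71 RPKM in the CvP against 117.69 in the Epi. Citrate synthase, *Cs*, had the lowest ratio with 105.63 and 105.49 RPKM. *Pdhb*, a subunit of pyruvate dehydrogenase, had the highest with 39.98 and 21.46 RPKM (1.86). Complex II and these enzymes thus stood on the same side in the deposited RPKM, unlike the 75 genes of the other complexes, whose median ratio was 1.00. The median log2 ratio of all genes (0.47) and those of the regulators (0.40) and assembly factors (0.32) described below lay on that side too.

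Factors that assemble the complexes mostly had the higher value in the CvP, as did 77.8% of all genes past the filter. Of 38 listed, 32 had a row and 31 were past the filter, 28 of these were higher in the CvP, 8 were over 1.5-fold, a smaller share than the 43.1% of all genes, and none was over it in the Epi, and their median log2 ratio of 0.32 turned to -0.08 when divided by the median ratio of all genes. They were expressed below the subunits, many of them at under 10 RPKM, where all genes had a median of 0.70 and 57.2% were over 1.5-fold higher in the CvP. *Ndufaf3*, an assembly factor of complex I, had the highest ratio with 8.42 RPKM in the CvP against 3.43 in the Epi (2.45), and *Acad9*, another, had the lowest with 30.22 and 42.12 (0.717). *Atpif1*, the inhibitor of complex V, was the most abundant with 129.55 and 97.41 RPKM. The 2 listed factors of complex II itself were *Sdhaf1*, with 8.02 RPKM in the CvP against 6.74 in the Epi (1.19), and *Sdhaf2*, with 7.12 and 4.59 (1.55).

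Other lists stayed near the subunits. Of 8 electron carriers and entry points not found by the rule, 2 were over 1.5-fold higher in the CvP and none in the Epi. Among all genes past the filter, 43.1% and 6.80% were. The median log2 ratio of the 8 was 0.11. *Cyc1*, the cytochrome of complex III, had 67.19 RPKM in the CvP against 61.35 in the Epi, and *Etfb*, which brings electrons from fatty acid oxidation, had 52.85 and 63.27. *Sqrdl*, the sulphide oxidase, had the highest ratio with 13.41 and 5.34 RPKM (2.51), and *Etfa* had the lowest with 46.75 and 62.11 (0.753). Of 23 carriers, import factors and membrane proteins of mitochondria, 2 were over 1.5-fold higher in the CvP, where 43.1% of all genes were. None was over it in the Epi, where 6.80% of all genes were, and the median of the 23 was 0.11. The ADP/ATP carrier *Slc25a5* had 220.07 and 191.61 RPKM and the phosphate carrier *Slc25a3* had 149.39 and 138.16. The extremes were the channel *Vdac3* with 18.27 and 9.59 RPKM (1.91) and the import channel gene *Timm23* with 9.70 and 12.38 (0.784). These lists therefore held most of their genes within the limits that the subunits kept.

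Glycolysis, the path of ATP synthesis outside mitochondria, was nearly level as well. Of 17 genes, 2 were over 1.5-fold higher in the CvP and none in the Epi, against 43.1% and 6.80% of all genes past the filter. The median log2 ratio was 0.11. *Aldoa*, the aldolase, had 269.35 RPKM in the CvP against 333.48 in the Epi, and *Ldha*, the main lactate dehydrogenase of glycolytic tissue, had 195.26 and 239.34. *Ldhb*, the form of oxidative tissue, had 16.94 and 7.22 RPKM (2.35), the highest ratio of the list, and *Tpi1* had 125.04 and 174.87 (0.715), the lowest. The 2 lactate dehydrogenase genes thus stood on opposite sides, and did so under all 3 other scalings.

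The mitochondrial ribosome makes the subunits coded in mitochondria. Of its 76 genes, 5 were over 1.5-fold higher in the CvP and none in the Epi, against 43.1% and 6.80% of all genes past the filter. Their median log2 ratio was 0.04, the same as complex I to 2 decimals. The most abundant were *Mrpl20* with 36.47 and 48.12 RPKM and *Mrpl52* with 39.87 and 46.37, and the ratio ran from that of *Mrpl14* (29.56 and 42.29 RPKM) to that of *Mrps5* (11.79 and 5.19). The 81 genes of the cytosolic ribosome stood lower, with a median of -0.40. Of these, 9 were over 1.5-fold higher in the Epi and 1 in the CvP, where 6.80% and 43.1% of all genes were. Among all genes of at least 100 RPKM, 31.7% were over 1.5-fold higher in the Epi and 13.1% in the CvP. *Rpl41* had 772.83 RPKM in the CvP against 1113.50 in the Epi, and *Rplp1* had 659.78 and 1041.79. *Rps29* had the lowest ratio with 16.00 and 30.58, and *Rps4y2* was the one over 1.5-fold higher in the CvP with 18.13 and 9.02. The lists also stood at different levels, with a median of 15.1 RPKM in the CvP for the mitochondrial ribosome and 144.2 for the cytosolic one, and all genes had a median log2 ratio of 0.29 at 10 to 30 RPKM and -0.36 at 100 RPKM or more.

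Known regulators of these genes were weakly expressed, at levels where all genes leaned to the CvP. Of 12, 11 were past the filter and 2 of these were over 1.5-fold higher in the CvP, against 43.1% of all genes. The median log2 ratio of 0.40 fell to just under 0 when divided by the median ratio of all genes. *Yy1* had 18.02 RPKM in the CvP against 13.81 in the Epi, and *Esrra*, an oestrogen-related receptor, had 13.49 and 16.53, the lowest ratio (0.816). *Ppargc1b*, a coactivator of mitochondrial genes, had the highest with 1.86 and 0.71 RPKM (2.62). *Tfam*, which binds mitochondrial DNA, had 5.07 and 3.14 RPKM (1.61), and *Nrf1* had 4.56 and 3.21.

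**Figure D4:**
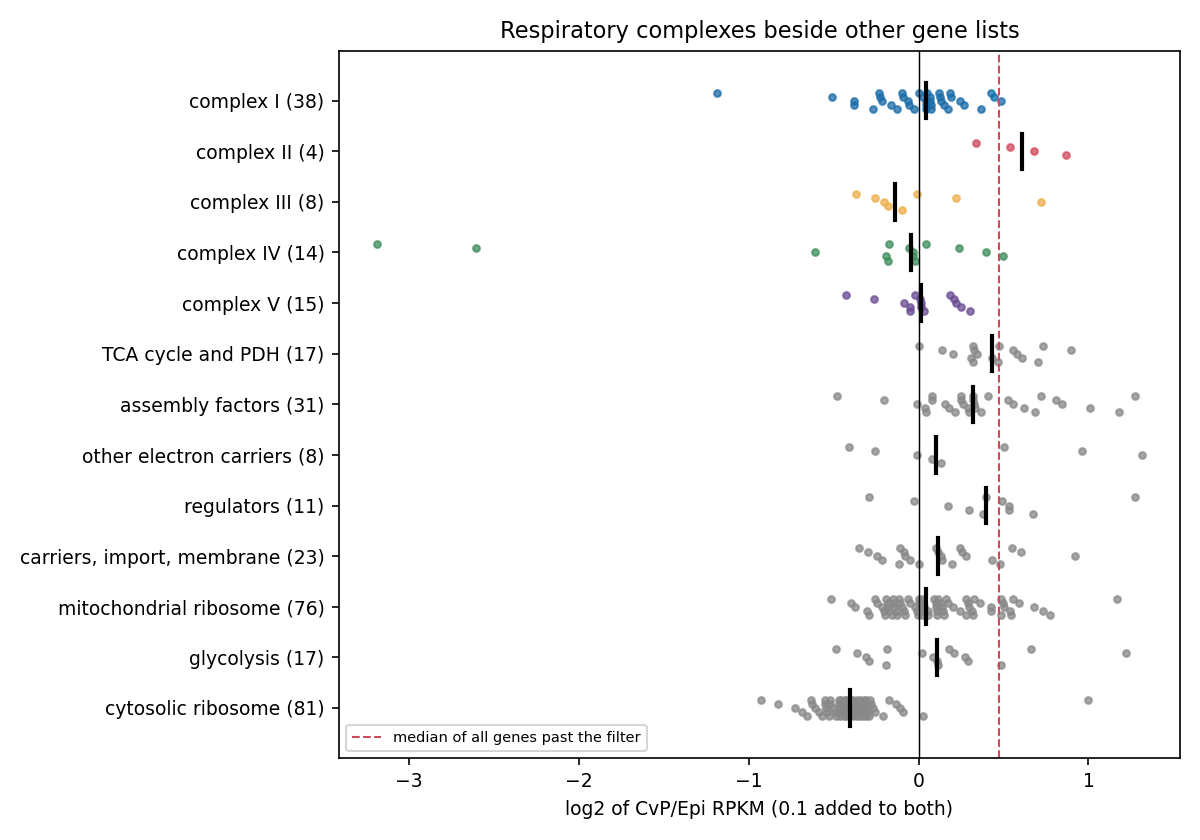
Log2 of the CvP/Epi RPKM (0.1 added to both values) on the x axis for every gene past the filter in each complex (coloured) and in 8 other lists (grey), with the number of genes in brackets, a black bar at each median, a line at 0 and a dashed line at the median of all genes (0.47). The medians of complex II (0.61), the TCA cycle (0.43), the regulators (0.40) and the assembly factors (0.32) lie furthest right, and that of the cytosolic ribosome (-0.40) lies left.

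The length of a transcript also went with the ratio. Among genes of at least 30 RPKM, those with a longest coding transcript under 1 kb had a median log2 ratio of -0.26, those of 1 to 2 kb had -0.08 and longer ones had 0.08. The oxidative phosphorylation genes had -0.03 (38 genes), 0.15 (19 genes) and 0.14 (6 genes) in the same classes. The core and catalytic subunits above are mostly the longer transcripts and the small subunits the shorter ones, and the part of length in their difference was not tested.

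Some of these transcripts share stretches with other places in the genome, which bears on what a read can show. Of the 85 transcripts, 32 shared at least 1 exact window of 75 bases with another place, and in 19 subunits more than 10% of the windows did. The 19 had a median level of 47.4 RPKM in the CvP against 47.3 in the Epi and a median log2 ratio of -0.03, and the other 60 past the filter had 50.04 and 49.11 RPKM and 0.04. *Atp5g2* (100% of windows), *Atp5l* (85.8%) and *Cox5b* (50.6%) were the most affected, and their levels are uncertain. Exons of 15 of the 85 genes overlap another gene on the opposite strand, among them 66 bases of *Cox6a2* with *Itgad*, 14 bases of *Ndufa4l2* with *Shmt2* and 183 bases of *Uqcrc2* with *Pdzd9*, and the counting is not stated to use strand.

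Most taste cell markers had the higher RPKM in the CvP. All 4 type III markers past the filter, all 3 general taste markers and 4 of 5 type II markers were over 1.5-fold higher in the CvP. These had Epi values under 1 RPKM and passed the filter only through the CvP, so their counts were set by the filter. The type II list summed to 290.3 RPKM in the CvP against 22.8 in the Epi. Of 3 type I markers 2 were over 1.5-fold higher in the CvP against 1 in the Epi. Immune markers (5 of 5 past the filter) and 5 of 8 genes of dividing cells were over 1.5-fold higher in the CvP. So were 43.1% of all genes past the filter, and 57.2% of those at 1 to 10 RPKM, where most genes of dividing cells stood. The 5 of 8 were thus not far above the share of all genes at that level. Among the immune markers, *C1qa*, *C1qb* and *Lyz2* passed the filter only through the CvP. In the Epi, 6 of 7 keratins and other genes of keratinized epithelium were over 1.5-fold higher, against 6.80% of all genes past the filter. The same held for 5 of 7 salivary gland genes and the 1 fibroblast gene past the filter. Among those 5, *Amy1*, *Dcpp1* and *Dcpp2* passed the filter only through the Epi. Of the salivary gland genes, 1 (*Aqp5*) was over 1.5-fold higher in the CvP and passed the filter only through the CvP. The part of these other cells in the subunit ratios was not tested.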

How the data were processed

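Poly(A) RNA of both tissues was made into TruSeq libraries and sequenced as single reads of 75 bases on an Illumina GAIIx. The authors mapped the reads with Bowtie 0.12.7 to NCBI37/mm9 and deposited RPKM values from ERANGE, with a gene length, for each row. Options of ERANGE and its handling of reads with several matches are not given in the sources used here. The deposited ratio column of the authors, CvP RPKM over Epi RPKM, was not used.

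Members, lists and settings were chosen with earlier results of these data known. Ratios were computed from the RPKM values, medians on the log2 scale after adding 0.1, which understates differences of low genes, over rows with a mean RPKM of at least 1. With 1 library per tissue no test was run, and a row was counted as different past 1.5-fold. Depth was read from the steps of RPKM in 163 rows of 0.1 kb, giving about 28375737 (CvP) and 27906964 (Epi) mapped reads. Reads per gene were estimated from the listed length or from the longest coding transcript of GENCODE M1, whichever was shorter. Isoform shares per base of the longest coding transcript instead took the reads from the listed length in every case. The listed length was a median of 1.61 times the transcript, so levels of different genes are approximate. Intervals are 95% exact (Clopper-Pearson). A count of 3 reads or fewer was taken as the floor.

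Named were the core subunits, isoform families, extremes of each complex, the 3 highest CvP values, rows past 1.5-fold or below the filter, and of each list the 2 most abundant genes and both extremes of ratio. One core subunit of complex I is counted but its values are not reported here. Further genes, among them *Ndufc1*, *Sdhaf1*, *Sdhaf2*, *Tfam*, *Nrf1* and the genes named for overlaps, were chosen after their values were seen, as were the motifs GCGCANGCG and the subunit-only counts. Windows of 75 bases were sought by exact match in NCBI37/mm9. Promoters came from RefSeq (GRCm38.p6), matched by gene ID. Scripts were tested on simulated data and used Python 3.11.15, numpy 2.4.6, pandas 2.3.3, scipy 1.17.1 and matplotlib 3.10.9. Alternatives were other pseudocounts, filters, scalings, folds and choices of members.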

Additional observations from a re-analysis of the deposited data

How the results depend on the processing

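The scaling between libraries moved every median of log2 ratios. Divided by the median ratio of all genes the medians were -0.37 for all 82 rows, -0.35 for complex I, 0.21 for complex II, -0.54 for complex III, -0.44 for complex IV and -0.38 for complex V. Divided by the trimmed mean they came to -0.38, -0.36, 0.21, -0.54, -0.45 and -0.39, and scaled to the same summed RPKM they were 0.30, 0.31, 0.88, 0.13, 0.24 and 0.28, in the same order. The median of complex II kept its direction under all 3 scalings, although *Sdhc* did not. Without genes that have copies elsewhere, complex IV came to -0.18. The 6 rows over 1.5-fold higher in the CvP became 3 with a mean RPKM of at least 10, 1 divided by the median ratio, 0 divided by the trimmed mean, 15 scaled to the same sum, 14 when a CvP value over 125% of the Epi value counted, 0 at 2-fold and 3 when only subunits were counted. The 4 rows over 1.5-fold higher in the Epi became 1 with a mean RPKM of at least 10, 17 divided by the median ratio, 17 divided by the trimmed mean and 9 when an Epi value over 125% of the CvP value counted. Over all settings, 56 recomputed medians and counts moved less, among them all of those with a pseudocount of 1 or 0.01, with no filter, with summed rows of one symbol and with *Ndufa4* and *Ndufa4l2* placed in complex IV. Of the values of single genes and isoform shares, 79 moved beyond their counting interval, 51 did not, and none of the genes past 1.5-fold changed sign. No paired analysis was possible because there was 1 library per tissue and no result came from a test. Without replicates the spread between mice or dissections is unknown. Depth limited *Cox7a1*, *Cox8b*, *Cox6b2*, *Cox4i2* and *Cox7b2*, each with 23 reads or fewer per library, and the 3 CvP reads of *Cox8b* lie at the floor.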

Other observations

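The vacuolar ATPase, a proton pump of lysosomes and some plasma membranes that shares the pathway entry of oxidative phosphorylation in the deposited annotation, was looked at after the data were seen. Of 111 rows with that entry, 78 were among the 85 described above, and 21 of the other 33 were subunits of this pump. Past the filter, 17 of the 21 had a median log2 ratio of 0.05. Of the 17, the CvP value was over 1.5-fold higher in 2 and the Epi value in 2, against 43.1% and 6.80% of all genes past the filter. *Atp6v0e2* had 16.28 RPKM in the CvP against 4.14 in the Epi, and *Atp6v1a*, a catalytic subunit, had 71.07 and 44.22. On the other side, *Atp6v0a4* had 13.88 and 23.83 RPKM and *Atp6v1c2* had 37.20 and 67.64. The other 13 of the 17 were within 1.5-fold, among them *Atp6v0b* with 88.34 and 88.23 RPKM.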
